A study of Sus scrofa with 6 samples.

Results

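A set of 707 stretches of the pig genome carried a peak of methylated DNA in every Yorkshire library and had no Wannanhua peak in them or within 2000 bp of either edge. They are called isolated Yorkshire-only regions here. A peak is a stretch where sequenced fragments (tags) pile up above the local background of the same library. Peaks of all 6 libraries that shared at least 1 bp were merged into 88582 regions on chromosomes 1, 10, 11, 12 and 13. The 707 are 0.798% of those, a share that the rule itself fixes, and 54.3% of the 1303 regions called in all 3 Yorkshire libraries and in no Wannanhua library. The other 596 of the 1303 had a Wannanhua peak within 2000 bp. The same rule turned round gave 315 isolated Wannanhua-only regions (0.356% of the merged regions). The regions were chosen by the presence of called peaks in Yorkshire and their absence in Wannanhua, so their counts, tags and enrichment in Yorkshire are descriptions and carry no test.

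Cytosine methylation is a chemical mark that DNA methyltransferases place on DNA, in mammals mostly where a cytosine precedes a guanine. It is known for silencing repeats and for keeping many promoters shut, and it is also common within active genes. In MeDIP-seq, an antibody that binds methylated cytosine pulls fragments out of sheared DNA before sequencing, so a peak reports dense methylated cytosines and not the state of any single base. Longissimus dorsi is the long muscle of the back, cut as the loin.

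The study compared this muscle between purebred Yorkshire, a lean Western breed, and purebred Wannanhua, a Chinese local breed, with 3 libraries of each, and all the pigs were female. No treatment or age is given in the sources used here. The labels number the samples but do not say that each came from its own animal, so the p-values below measure only how these samples vary among themselves, and that variation may be technical. Whole muscle also holds fat, vessel and connective tissue cells, and their share was not measured.

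After duplicate removal the libraries held 6728444 to 17108367 tags. Yorkshire 3 (6728444) and Wannanhua 1 (7413391) were the shallowest. The deposited lists hold 33496 to 61707 peaks on the 5 chromosomes, fewest in Wannanhua 1. Fragment length as estimated by the caller was 97 to 169 bp in Yorkshire and 179 to 202 bp in Wannanhua, so it cannot be told apart from breed. Peak length and fold enrichment depend on it, and its part in the results below was not tested. Tags that form no peak are not in the lists: a region without a Wannanhua peak stayed under the cutoff there and was not shown to be unmethylated.

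Coordinates are given as in the lists, whose genome build is not given in the sources used here. On 5 of 5 chromosomes the lists reach beyond the final gene in RefSeq's table for Sscrofa11.1, as do 84 of the 707 regions, so that table was not used to place regions in genes and no sequence is shown.

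The number of isolated regions was set beside the number that the same rule gives for the other groups of 3 libraries, of which there are 20 in all. Yorkshire 1, 2 and 3 came the third with 707. More regions were isolated for Yorkshire 2 with Wannanhua 2 and Wannanhua 3 (986) and for Yorkshire 1 and Yorkshire 2 with Wannanhua 2 (792). Both of those groups leave out Yorkshire 3 and Wannanhua 1, the shallowest libraries. The 18 groups that mix the breeds ran from 32 (Yorkshire 1, Yorkshire 3 and Wannanhua 1) to 986, with a median of 177. Groups share libraries, so these counts are not independent of each other.

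With the 33496 highest-scoring peaks from every library, all of Wannanhua 1 and 54.3% to 70.6% of the other libraries' peaks, the order changed. Wannanhua had 834 isolated regions, Yorkshire had 650, and the 18 mixed groups had 147 to 373 with a median of 211.5. Both single-breed groups then stood above every mixed group, and Wannanhua above Yorkshire. The 650 were mostly other regions. Only 96 of the 707 were among them, which is 13.6% of the 707 and 14.8% of the 650.

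**Figure D1:**
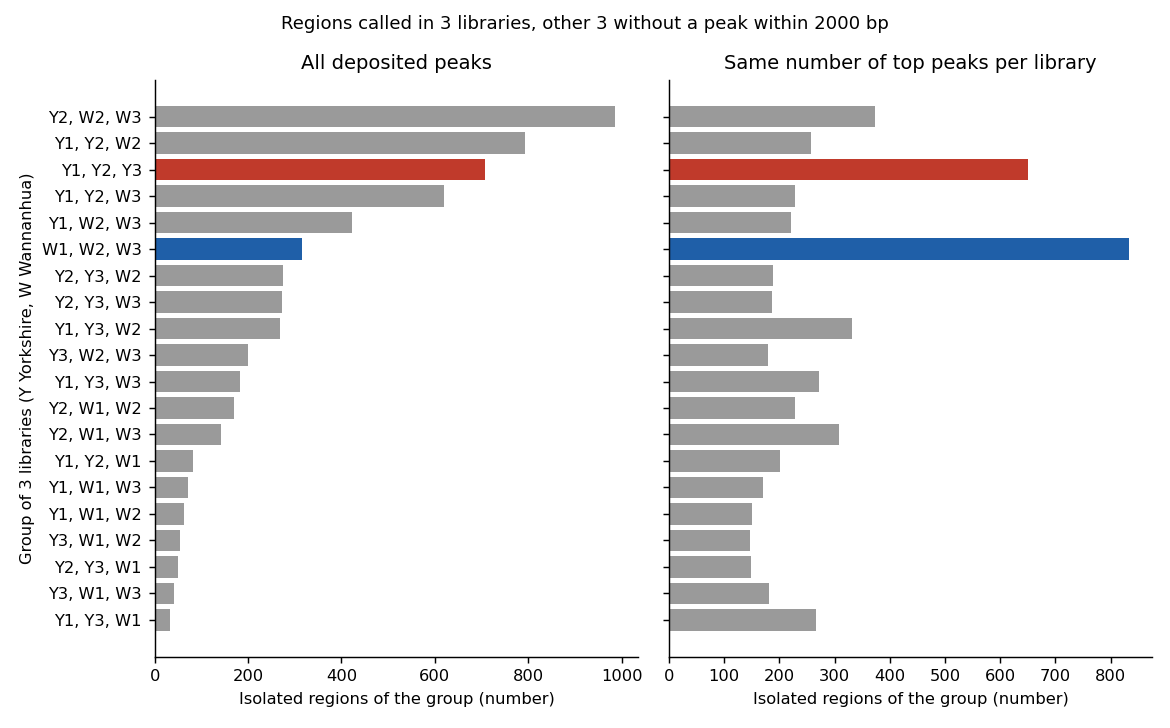
Number of isolated regions (x axis) for each of the 20 groups of 3 libraries (y axis; Y for Yorkshire, W for Wannanhua), with all deposited peaks on the left and with 33496 peaks per library on the right, on different x scales. Red is the Yorkshire group (707 and 650), blue the Wannanhua group (315 and 834), grey the mixed groups, of which 2 exceed Yorkshire on the left and 0 on the right.

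Most of the 707 fell under the score kept in at least 1 Yorkshire library. The score, as the authors' caller gave it, was taken to be a multiple of the negative log10 of the peak's p. Among the 707, 96 had a score at or above the level kept in all 3 Yorkshire libraries. A further 223 fell below it in 1 library, 265 in 2 and 123 in all 3. Conversely, of the 554 regions that entered, 533 overlapped a weaker Wannanhua peak in the full lists and 20 had one within 2000 bp.

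Regions called in all 3 Yorkshire libraries numbered 32690. Of these, 58.6% were called in all 3 Wannanhua libraries as well and 23.5% in Wannanhua 2 and Wannanhua 3 but not in the shallow Wannanhua 1. A further 1827 had a peak in Wannanhua 2 alone, 1081 in Wannanhua 3 alone and 249 in Wannanhua 1 alone. The 1303 with no Wannanhua peak, from which the isolated regions come, were 3.99%.

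The isolated regions were narrow and held few tags. Their median width was 505 bp (quartiles 431 and 605 bp, range 277 to 3738 bp), and 36 of 707 (5.09%) were wider than 1000 bp. Regions called in all 6 libraries had a median of 773 bp, and 25.2% of them exceeded 1000 bp. Isolated Wannanhua-only regions were wider, at a median of 756 bp, in libraries with longer fragments.

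Median tags per isolated region were 14, 18 and 10 in Yorkshire 1, 2 and 3, with ranges of 9 to 173, 11 to 354 and 7 to 134. The lowest of each range is the smallest peak that library has. Within 5 tags of that smallest peak lay 55.6% of the isolated regions in Yorkshire 1, 42.9% in Yorkshire 2 and 76.4% in Yorkshire 3, against 10.4%, 4.40% and 24.2% of the regions called in all 6. Isolated regions thus sat near the caller's limit, where counting error is large, more often than regions called everywhere in each Yorkshire library.

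Median fold enrichment, the ratio of tags to local background that the authors' caller reported, was 13.1, 11.06 and 22.1 in Yorkshire 1, 2 and 3. It was 18.0, 15.7 and 26.7 in regions called in all 6, and 11.11, 9.20 and 16.5 in the 596 Yorkshire-only regions with a Wannanhua peak nearby. The isolated ones thus lay between those sets by enrichment in each Yorkshire library, but below both by tags (the nearby ones had 18, 24 and 12). Ranked among all peaks of their library, the median isolated region stood at the 41.3, 44.1 and 50.1 percentile of fold enrichment, but at only the 31.3, 30.5 and 29.5 percentile of tags.

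**Figure D2:**
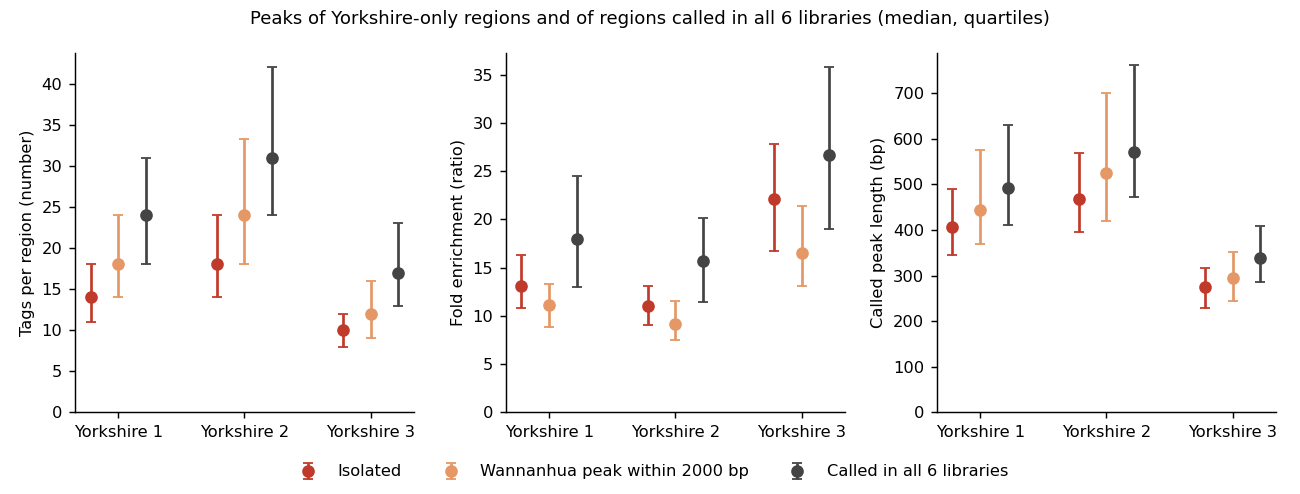
Tags per region, fold enrichment and called peak length in bp (y axes) in Yorkshire 1, 2 and 3 (x axes); points are medians over regions and bars run from the lower to the upper quartile, so bars show spread between regions and not replicate error. Isolated regions (red) have median tags of 14, 18 and 10, under the dark grey points of regions with a peak in every library (24, 31 and 17), and by fold enrichment they lie between those and the Yorkshire-only regions with a Wannanhua peak nearby (orange).

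In most isolated regions the 3 Yorkshire libraries placed their peaks close together. In 699 of the 707 regions each library had 1 peak, and the other 8 were split into 2 peaks in Yorkshire 3. The summits, the points of highest pile-up, lay within a median of 51 bp of each other (quartiles 30 and 79 bp), and within 100 bp in 607 regions (85.9%). In the 17313 regions with exactly 1 peak in each of the 6 libraries, the Yorkshire summits lay within a median of 46 bp, and 85.8% were within 100 bp. In bp the summits thus lay about as close in isolated regions as in regions called everywhere. Merging asks for overlapping peaks, so close summits are in part fixed by the rule. Called peaks of the isolated regions were also shorter, at medians of 406, 469 and 274 bp in Yorkshire 1, 2 and 3. Over all regions called in all 6 they were 492, 571 and 339 bp. The spread relative to peak length was not computed.

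Scaled to library size (CPM, the number of tags scaled by the filtered tags of the library), the medians were 1.32, 1.18 and 1.49 CPM in Yorkshire 1, 2 and 3. The highest of the 3 values fell in Yorkshire 3 in 363 regions (51.3%), in Yorkshire 1 in 198 and in Yorkshire 2 in 146. The ratio of highest to lowest CPM had a median of 1.46 and exceeded 3 in 4 regions. The lowest CPM possible, that of each library's smallest peak, stood in the same order, at 0.849, 0.720 and 1.04 in Yorkshire 1, 2 and 3. How far this limit set the ranking and the ratio was not tested. Across the 707 regions, Spearman's rho of tags between libraries was 0.588 for Yorkshire 1 and 2, 0.450 for Yorkshire 1 and 3 and 0.458 for Yorkshire 2 and 3, and rho of score was 0.160 to 0.186. Regions are not independent replicates, and the cutoff narrows the range of values, so these figures are descriptions only.

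The strongest isolated regions were taken as the 10 with the highest fold enrichment in their weakest Yorkshire library. They lay on chromosomes 1, 11 and 13 and were 351 to 673 bp wide. All 10 stayed isolated with the same number of top-scoring peaks from every library, which a choice by enrichment favours. With other settings 6 stayed at a score of at least 100, 2 with at least 15 tags, 6 at an isolation distance of 5000 bp and 3 at 10000 bp.

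The top one, chr1:115088466-115088940, had 19, 35 and 12 tags and a fold enrichment of 27.8, 28.2 and 31.8 in Yorkshire 1, 2 and 3. Its 3 values of enrichment were close together, and the nearest Wannanhua peak was 15100 bp away. At chr1:135413341-135413851 tags were 21, 30 and 8 and fold enrichment 26.1, 25.2 and 23.9, with the nearest Wannanhua peak 28571 bp away. Its enrichment too was close together, but its CPM was 1.98, 1.96 and 1.19, lowest in Yorkshire 3. There 8 tags is only 1 above that library's smallest peak. Over all isolated regions the median enrichment was higher in Yorkshire 3 (22.1) than in Yorkshire 1 and 2 (13.1 and 11.06), so like values do not mean like rank in each library.

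At chr11:80719606-80719956 fold enrichment was 26.1, 23.9 and 35.8, and at chr13:159356365-159356758 it was 26.0, 23.2 and 43.8. Both were highest in Yorkshire 3, the library with the shortest fragments. At chr11:50311893-50312321 it was 21.2, 31.2 and 27.9, highest in Yorkshire 2. At chr13:88774305-88774709 tags were 15, 21 and 9 and fold enrichment 21.2, 21.1 and 35.8. Its nearest peaks in Wannanhua 1, 2 and 3 lay at about the same distance, 24208, 24173 and 24104 bp, and on which side was not recorded.

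The other 4 were chr13:138272355-138272945, chr1:114599052-114599562, chr1:35161673-35162345 and chr13:202129468-202130029, with 10 to 16 tags in Yorkshire 3. Of these, chr1:114599052-114599562 came closest to the distance limit, with a Wannanhua peak 2530 bp away.

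The regions with the most tags were wide and weakly enriched, and 3 of the 5 were also among the 5 widest. The highest was chr1:307338415-307341808, 3394 bp wide, with 16.3, 23.2 and 19.9 CPM in Yorkshire 1, 2 and 3 and fold enrichment of only 9.17, 8.78 and 13.3. Its nearest Wannanhua peaks were 12788, 4676 and 3645 bp away in Wannanhua 1, 2 and 3. At chr12:3532875-3535359 there were 104, 191 and 46 tags at a fold enrichment of 4.55, 3.0 and 6.70, with no Wannanhua peak for 12172 bp.

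The widest of all, chr1:306434375-306438112, spanned 3738 bp. Yorkshire 2 had 226 tags there (14.8 CPM), but Yorkshire 1 and Yorkshire 3 had 57 and 56 (5.38 and 8.32 CPM). The summits of the 3 libraries lay up to 1692 bp apart, the largest spread among the 707, so the merged stretch does not mark a single shared peak. At chr13:216494024-216497638 and chr12:407725-410088 Yorkshire 2 likewise had 188 and 135 tags where the other Yorkshire libraries had 21 to 36. Scaled to library size these were 12.3 and 8.84 CPM against 2.74 to 3.72 CPM.

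On each chromosome the region with the highest mean score was chr1:307338415-307341808, chr10:4725335-4725846, chr11:50311893-50312321, chr12:60180319-60181598 and chr13:21513377-21513783. The one on chromosome 10 had 14, 35 and 13 tags and fold enrichment of 18.0, 23.0 and 35.8, and its nearest Wannanhua peak was 11517 bp away. The one on chromosome 13 had 12, 14 and 12 tags, and its enrichment of 19.6, 13.1 and 47.7 rested most on Yorkshire 3.

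The nearest Wannanhua peak lay a median of 4438 bp from an isolated region (quartiles 2944 and 8180 bp). It was more than 5 kb away for 306 regions (43.3%), more than 10 kb for 135 (19.1%), more than 20 kb for 39 and more than 50 kb for 6. For 352 regions it belonged to Wannanhua 3, for 296 to Wannanhua 2 and for 62 to the shallow Wannanhua 1, with ties counted for each library.

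The median distance to another Yorkshire peak was 3832 bp. Such a peak lay within 2000 bp of 109 regions (15.4%) and was nearer than any Wannanhua peak for 335 (47.4%). The rule bars Wannanhua peaks within 2000 bp but not Yorkshire ones, so for those 109 regions the order is fixed by the rule. Isolation here thus means distance from Wannanhua peaks and not from peaks in general.

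The farthest region from Wannanhua was chr1:274033679-274034176, with 17, 13 and 9 tags and 109355 bp to the nearest Wannanhua peak, though another Yorkshire peak was 9460 bp away. At chr12:29933833-29934303 (94947 bp) tags were 17, 14 and 14, and at chr1:54582800-54583305 (88071 bp) they were 10, 16 and 8. Next came chr13:198111383-198111746 (74401 bp) and chr13:27259057-27259422 (59853 bp). These 5 had ordinary tag counts for isolated regions, and none of the 5 stayed isolated with the same number of peaks from every library. At chr1:54582800-54583305 and chr13:198111383-198111746 the nearest other Yorkshire peak was also far, at 84639 and 74490 bp.

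The limit of 2000 bp split regions that looked alike. Just inside it, chr13:214696695-214697472 (2002 bp) had 18, 29 and 10 tags, chr11:23697394-23698828 (2006 bp) had 22, 76 and 15, and chr13:21214405-21214852 (2007 bp) had 12, 14 and 8. Just outside it, chr10:64041969-64042659 (1999 bp) had 30, 26 and 20 tags, chr11:49755230-49755848 (1997 bp) had 22, 17 and 18, and chr11:12036032-12036722 (1989 bp) had 21, 37 and 11.

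Whether a peak could have been called in Wannanhua was gauged from depth. At the mean CPM of the 3 Yorkshire libraries, the median isolated region would hold 9.65 tags in Wannanhua 1, 22.3 in Wannanhua 2 and 20.02 in Wannanhua 3. The typical peak just past the cutoff (score of 50 to 55) held 11, 17 and 15 tags in those libraries. By that measure 233 regions (33.0%) would have reached such a level in Wannanhua 1, 655 (92.6%) in Wannanhua 2 and 667 (94.3%) in Wannanhua 3. The rest of the 707, which is the larger part in Wannanhua 1, would have held fewer tags than that typical peak. The smallest peak called held 9, 13 and 12 tags in Wannanhua 1, 2 and 3. That level would have been reached by 431 regions (61.0%) in Wannanhua 1 and by all 707 in Wannanhua 2 and 3. Below it a difference from Yorkshire was not detectable at that library's depth. Between these levels it may not have been. Only 40 regions (5.66%) fell short of the typical peak in all 3 Wannanhua libraries.

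With the lowest of the 3 Yorkshire CPM in place of the mean, the shares that reached the typical peak were 20.5%, 55.4% and 61.1%. Yorkshire peaks had to pass the cutoff to enter, which raises their CPM above what an unselected library would show. All of these shares may therefore be too high. The local background, which also sets the cutoff, was not modelled.

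Isolated regions were spread over all 5 chromosomes in about the proportion of merged regions. Chromosome 1 held 274, chromosome 13 held 162, chromosome 11 held 99, chromosome 10 held 95 and chromosome 12 held 77. As shares of each chromosome's merged regions these were 0.855% (95% Wilson interval 0.760 to 0.962), 0.768% (0.659 to 0.896), 0.865% (0.711 to 1.05), 0.758% (0.621 to 0.926) and 0.671% (0.537 to 0.838). The intervals, which cover counting error only, overlap for every pair of chromosomes. Per Mb the range was 0.741 on chromosome 13 to 1.21 on chromosome 12.

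On chromosome 12 the isolated regions had more tags (medians 17, 23 and 11) but lower enrichment (10.3, 8.45 and 16.2) than on chromosome 1 (13, 16 and 9 tags, 14.7, 11.5 and 23.9 fold) or chromosome 13 (12, 16 and 9 tags, 14.7, 12.1 and 23.9 fold). The direction was the same in each Yorkshire library. The median distance to a Wannanhua peak was also shortest on chromosome 12, at 3035 bp, and longest on chromosome 13, at 5448 bp. Merged regions of all libraries were likewise most closely packed on chromosome 12 (11474 over 63.6 Mb) and least on chromosome 13 (21084 over 218.6 Mb). How far the distances follow that packing was not tested.

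Within 20 Mb of a chromosome end lay 257 of the 707 isolated regions (36.4%), against 36.7% of all merged regions and 30.3% of regions called in all 6. The share was thus near that of merged regions and above that of regions called everywhere. Isolated Wannanhua-only regions had 58.1% there, and the 596 Yorkshire-only regions with a Wannanhua peak nearby had 48.3%. By chromosome the share for isolated Yorkshire-only regions was 21.2%, 58.9%, 53.5%, 66.2% and 24.1% on chromosomes 1, 10, 11, 12 and 13, where all merged regions had 19.4%, 53.7%, 61.5%, 66.1% and 23.2%. The end zones make up 12.7%, 50.6%, 45.6%, 62.9% and 18.3% of the length covered by the lists, so by length isolated and merged regions were both denser near the ends on each of the 5 chromosomes. The shares on chromosomes 1, 12 and 13 were within 2 percentage points of those of the merged regions, while chromosome 10 had a larger and chromosome 11 a smaller share near its ends.

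**Figure D3:**
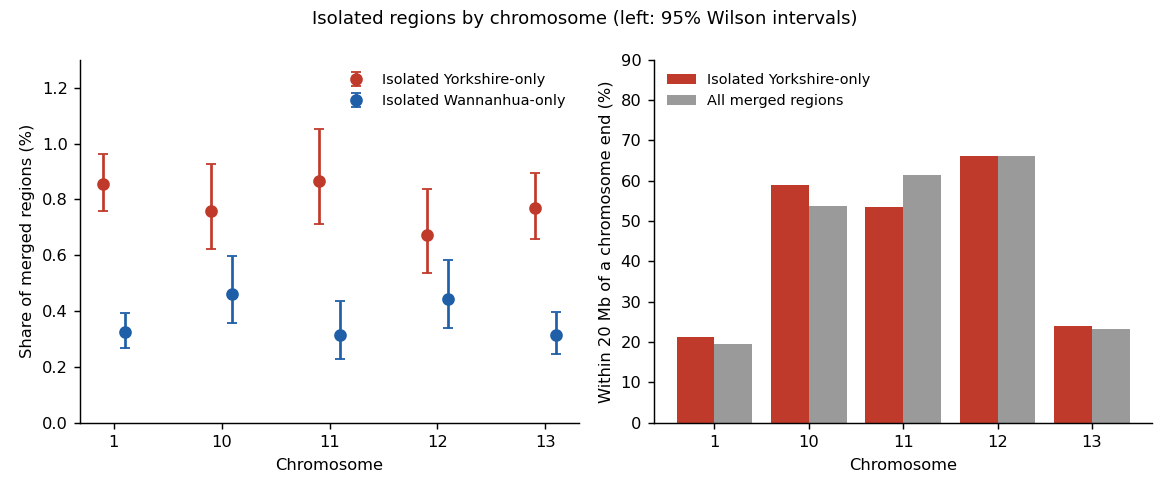
Left, isolated regions as a percentage of merged regions on each chromosome, with 95% Wilson intervals for counting error; Yorkshire-only (red) runs from 0.671% to 0.865% and lies above Wannanhua-only (blue) on each of the 5 chromosomes when all deposited peaks are used. Right, percentage within 20 Mb of a chromosome end for isolated Yorkshire-only regions (red) and all merged regions (grey), which differ most on chromosome 11 (53.5% and 61.5%) and chromosome 10 (58.9% and 53.7%).

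Neighbouring isolated regions were a median of 701 kb apart. Of 702 neighbouring pairs, 73 lay within 100 kb and 9 within 10 kb. Of the 767 windows of 1 Mb, 320 held none, 263 held 1, 127 held 2, 42 held 3, 11 held 4 and 4 held 5. One of the 4 densest, chromosome 1 from 86000001 to 87000000, held 5 among 152 merged regions. They were chr1:86326276-86326772, chr1:86466791-86467231, chr1:86467973-86468636, chr1:86848385-86848989 and chr1:86881653-86882123, with 9 to 29 tags in Yorkshire 1. The second and the third of them lie 742 bp apart, with 17, 18 and 12 tags and 17, 19 and 10 tags in Yorkshire 1, 2 and 3.

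The flanks, which the rule did not use, were tested for a breed difference. From 2 to 50 kb outside the isolated regions, peaks were denser than each library's own mean by 1.17, 1.18 and 1.22 times in Yorkshire 1, 2 and 3 and by 1.22, 1.21 and 1.20 times in Wannanhua 1, 2 and 3. The breeds overlapped. The means were 1.19 ± 0.024 and 1.21 ± 0.013 (SD, n = 3 each; two-sided exact permutation p = 0.3, where 3 against 3 cannot go below 0.1). Over all 707 the flanks were thus denser in peaks than the library's mean in each of the 6 libraries, and 3 libraries a breed cannot show whether the breeds differ there at 0.05. Dense flanks were not particular to the 707. From 2 to 50 kb outside the 315 isolated Wannanhua-only regions the means were 1.36 ± 0.030 in Yorkshire and 1.43 ± 0.072 in Wannanhua (exact permutation p = 0.1, n = 3 each). For the 306 of the 707 more than 5 kb from a Wannanhua peak, the flanks from 5 to 50 kb were less dense than the mean. There the breeds lay the other way round, at 0.965 ± 0.0033 in Yorkshire and 0.929 ± 0.018 in Wannanhua (exact permutation p = 0.1, n = 3 each). Choosing regions without a Wannanhua peak within 5 kb may itself favour flanks poor in Wannanhua peaks, which was not tested. The difference of Yorkshire minus Wannanhua was -0.018 in the full set, -0.044 with the same number of peaks from every library and -0.042 by covered length (exact permutation p = 0.1 for the last 2).

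**Figure D4:**
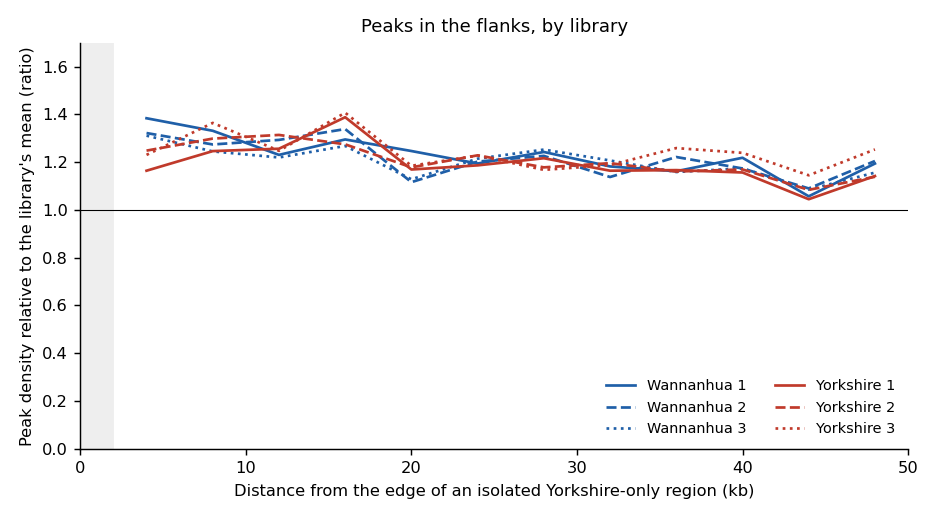
Peak density relative to the library's own mean over the 5 chromosomes (y axis, ratio; 1 is the mean) against distance from the edge of an isolated Yorkshire-only region in kb (x axis), in steps of 4 kb. Each line is 1 library, Yorkshire red and Wannanhua blue; the grey band marks the 2 kb where the rule allows no Wannanhua peak. The lines start beyond that band, where those of both breeds cross each other and lie above 1.

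Tags in neighbouring regions that every library had in common gave a second measure that the rule did not use. Of the 19161 regions called in all 6 libraries, 331 lay within 10 kb of an isolated Yorkshire-only region. By edgeR's quasi-likelihood test with Benjamini-Hochberg adjustment over all 19161, 4 of the 331 passed at 0.05 (1.21%, against 0.694% of all regions tested). Tags were higher in Yorkshire in 1 of the 4 (0.151% of all regions tested were) and higher in Wannanhua in 3 (0.543% of all). The median log2 fold change of Yorkshire over Wannanhua was -0.09 in the 331 and 0.04 in all regions tested. Scaling by library size alone shifted the median of all regions by 0.13 and gave 0.04 and 0.16. Relative to all regions the 331 thus lay 0.12 to 0.13 lower in Yorkshire under both scalings. This direction was not particular to isolated Yorkshire-only regions. Within 10 kb of isolated Wannanhua-only regions lay 161 regions, with a median of -0.24 by the first scaling. Of these, 5 passed (3.11%), all of them higher in Wannanhua.

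Per library, the median log2 CPM of the 331 minus that of all 19161 was 0, 0.04 and 0 in Yorkshire 1, 2 and 3 and 0.18, 0.15 and 0.09 in Wannanhua 1, 2 and 3. The Wannanhua values all lay above the Yorkshire ones. Called peaks in the 331 covered a median of 486 bp (Yorkshire) and 631 bp (Wannanhua). Per kb of called peak their ratio of Yorkshire to Wannanhua tags had a median of 1.25, against 1.33 in all regions.

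The 4 that passed are named after their values were seen. At chr1:10893560-10894210, 2255 bp from an isolated region, TMM-scaled CPM, over tags in the tested regions, were 121, 83.6 and 144 in Yorkshire and 40.6, 46.9 and 36.1 in Wannanhua. The edgeR log2 fold change was 1.47 (edgeR adjusted p = 0.0237), with an SE of 0.32 derived here from the fold change and the test statistic. The groups do not overlap, and called lengths were alike (515 and 430 bp on average), giving 229 and 99.1 CPM per kb. The other 3, chr1:307539513-307545051, chr13:89710837-89712086 and chr1:23480703-23481709, had more tags in Wannanhua, where called peaks were also longer (3769, 972 and 931 bp against 708, 431 and 545 bp). Per kb their ratio of Yorkshire to Wannanhua was 0.936, 0.854 and 0.741. Without Yorkshire 1, Wannanhua 2 or Wannanhua 3 none of the 331 passed edgeR's test, and of all regions tested only 1, 6 and 12 did. Of the 331, 41, 41 and 48 had an unadjusted edgeR p under 0.05 (12.4%, 12.4% and 14.5%). Among all regions tested that share was 10.6%, 12.2% and 11.4%. Without Wannanhua 1 only 1 of the 331 passed (0.302%, against 0.277% of all). Without Yorkshire 2 there were 48 (14.5%, against 9.73% of all regions), 46 of them higher in Wannanhua. The region from 23480703 also missed the threshold when scaled by library size alone (edgeR adjusted p = 0.0533).

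Which regions counted as isolated and Yorkshire-only depended on the distance asked for and on the peaks admitted. At 5000 bp 306 of the 707 stayed (43.3%) and at 10000 bp 135 (19.1%), and a shorter distance keeps all of them by construction. Of the 707, 701 stayed with summits widened by 250 bp on each side and 579 with reciprocal 50% overlap. Far fewer, 85, stayed when only peaks of at least 15 tags were used, and 26 when only peaks with a score of at least 100 were used. Yorkshire-only regions outnumbered Wannanhua-only ones at each isolation distance tried (959 to 466 at 1000 bp, 306 to 113 at 5000 bp and 135 to 27 at 10000 bp). They were fewer with the same number of peaks (650 to 834), with at least 15 tags (113 to 251) and without Wannanhua 1 (843 to 1180).

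**Figure D5:**
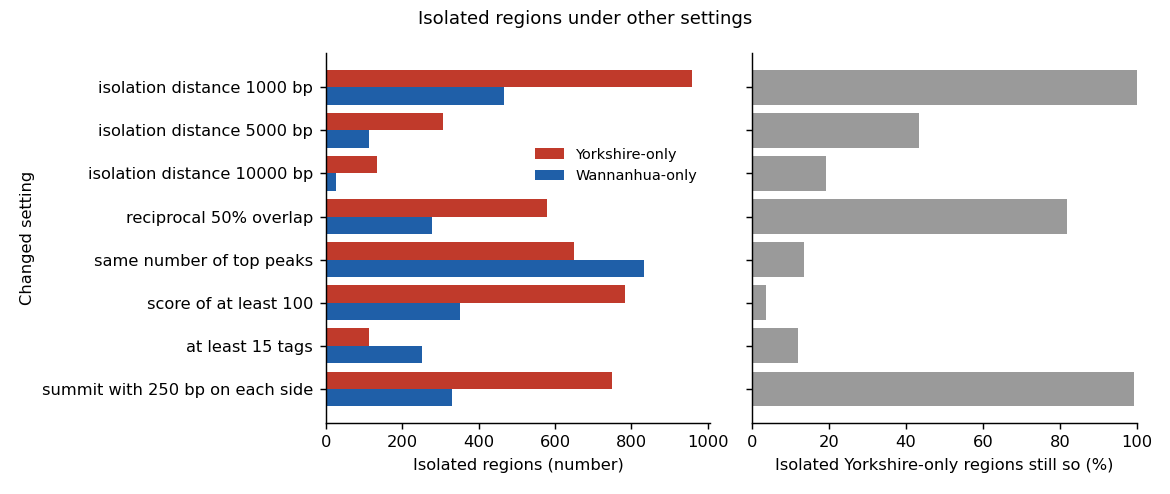
Left, isolated Yorkshire-only (red) and Wannanhua-only (blue) regions (x axis, number) under 8 changed settings (y axis). Right, the percentage of the 707 isolated Yorkshire-only regions that were still so under each; it is 13.6% with the same number of top peaks, 3.68% with a score of at least 100 and 12.0% with at least 15 tags.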

How the data were processed

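Per the file headers the authors called peaks with MACS separately in each library, without a control library, at a p cutoff of 1e-05 and with at most 1 tag kept per position. The header of 5 lists names version 1.4.2. Aligner and genome build: not given in the sources used here. The deposited tags of a peak are a count that was not normalized. The deposited fold enrichment is the caller's ratio of tags to local background. The deposited score was taken to be the caller's negative log10 of the peak's p times a constant, as the lists do not name it. Neither fold nor score was recomputed. Every list ends after 65516 peaks, part-way through a chromosome, so only the 5 chromosomes complete in all lists were used.

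Peaks sharing 1 bp were merged. Where a library had 2 peaks in a region, tags and lengths were summed and the higher fold and score were taken. Regions more than 2000 bp from any Wannanhua peak were kept. Chromosome ends were taken as base 1 and the end of the last peak. Flank densities were compared by two-sided exact permutation over libraries. Tags of the 19161 regions called in all 6 libraries were tested with edgeR 4.0.16 (quasi-likelihood, robust, TMM, filterByExpr, Benjamini-Hochberg at 0.05) in R 4.3.3, and DESeq2 1.42.0 was an alternative. Positions and exact tests used Python 3.11.15, numpy 2.4.6, pandas 2.3.3, scipy 1.17.1 and matplotlib 3.10.9. The merging and the edgeR step were tested on simulated data. Other settings were isolation distance, overlap, number and strength of peaks, flank width, scaling and leaving out each library.

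Regions named are the 10 with the highest fold enrichment in their weakest Yorkshire library, the 5 with most CPM, the 5 widest, the 5 farthest from a Wannanhua peak, the 1 with the highest mean score per chromosome, 3 on each side of 2000 bp, and those of the densest 1 Mb window (of 4 tied, the 1 with fewest merged regions). The regions, rules and tests were chosen with earlier results of these data known.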

Additional observations from a re-analysis of the deposited data

How the results depend on the processing

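The count of 707 moved by more than 1.5 times with an isolation distance of 5000 bp (306) or 10000 bp (135) and with at least 15 tags (113). Leaving out 1 library asks for fewer peaks, and the count then ran from 843 (without Wannanhua 1) to 1997 (without Yorkshire 3). It was 1265 without Yorkshire 1, 1216 without Yorkshire 2, 1935 without Wannanhua 2 and 1465 without Wannanhua 3. The excess of isolated Yorkshire-only over Wannanhua-only regions, 392, was 193 at 5000 bp and 108 at 10000 bp. It reversed to -184 with the same number of top peaks and to -138 with at least 15 tags, and ran from -337 (without Wannanhua 1) to 1539 when each library was left out. The causes of these reversals were not tested. The difference in relative flank density, -0.018 (Yorkshire minus Wannanhua), reversed to 0.037 with an isolation distance of 5000 bp and flanks from 5 to 50 kb, and ran from -0.031 to -0.0084 over the left-out libraries. The 4 calls among the 331 neighbouring regions (1.21%, against 0.694% of all) were 20 with DESeq2 (6.04% against 2.66%, 19 higher in Wannanhua), which gave no adjusted p for 237 of the 331. Within 50 kb 11 of 1818 were called (0.605%, 10 higher in Wannanhua), below the share of all regions. When a library was left out, 0 to 48 of the 331 were called (0% to 14.5%, against 0.00522% to 9.73% of all). Their median log2 fold change less that of all regions, -0.12, was -0.063 within 50 kb and ran from -0.144 to -0.0698 over the left-out libraries. With the replicate number as a block, 11 of the 331 were called (3.32% against 1.42% of all, 10 higher in Wannanhua). Same-numbered libraries of the breeds did not deviate together (correlations of -0.01, 0.03 and -0.05), and the labels do not say that numbers mark a shared batch, so the block has no stated basis. Of the 33 named regions, 8 stayed at a score of at least 100, 10 at 10000 bp, 12 with at least 15 tags, 16 with the same number of peaks, 17 at 5000 bp, 22 with reciprocal 50% overlap, 31 with widened summits and 33 at 1000 bp, and none of them under all 8. Depth limits what absence of a peak can mean, most in Wannanhua 1.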

Other observations

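Chromosome 14 is not complete in all lists, but all 6 reach 38.3 Mb along it. The same rule applied there gave 25 isolated Yorkshire-only and 20 isolated Wannanhua-only regions among 5580 merged regions (0.448% and 0.358%). The Yorkshire-only share lay below that of each of the 5 complete chromosomes, none of which was under 0.671%. It rests on 25 regions and on part of the chromosome, and no interval was computed for it. Whether chromosome 14 differs from the others was thus not tested. The 25 regions had a median width of 505 bp and a median fold enrichment of 13.1, 12.1 and 23.9 in Yorkshire 1, 2 and 3, close to the values on the complete chromosomes. The 18 mixed groups of 3 libraries gave 1 to 87 regions there with a median of 13.5, and 3 of them exceeded the Yorkshire group.

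The 96 regions that stayed isolated and Yorkshire-only with the same number of peaks from every library lay 37 on chromosome 1, 24 on chromosome 13, 15 on chromosome 10, 14 on chromosome 11 and 6 on chromosome 12. Their median width was 505.5 bp, with 37 (38.5%) in the outer 20 Mb of a chromosome. Their median tags were 17, 25 and 12 in Yorkshire 1, 2 and 3.

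The closest pair of isolated regions lay 226 bp apart, at chr1:6208220-6209013 and chr1:6209239-6209890. Yorkshire 1, 2 and 3 had 24, 27 and 11 tags in the first and 21, 27 and 8 in the second. The pair was chosen after its values were seen.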
